A study of Homo sapiens with 8 samples.

Results

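The genes described here are 31 protein-coding genes that are imprinted in humans, listed by name, out of 19785 protein-coding genes annotated on hg19. They lie at 16 loci, and for each gene the nearest peak to a transcription start site (TSS) and the peaks within 10 kb and within 50 kb were read in each of 6 peak lists. The lists come from ChIP-Seq of PC3, a prostate cancer line derived from a bone metastasis. Chromatin was collected with antibodies to DAXX, to DNMT1 and to an H3(Lys4) mark, in DAXX K/D cells and in WT cells, with 1 library for each antibody and line and 1 input per line. The labels do not spell out which H3(Lys4) methylation the antibody reads. The K/D cells carry a stable lentiviral shRNA against DAXX and were grown with 2 µg/ml puromycin. The cells labelled WT are described in the series text as carrying a control shRNA and in the labels as wild type. Both lines are PC3, both share its cancer genome, and whether the K/D line is a pool or a single clone is not given in the sources used here.

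Imprinted genes are expressed mainly from the copy inherited from the mother or from the father. The choice is written in the germ line as DNA methylation on 1 parental copy of a control region, and DNMT1, the enzyme that copies methylation onto newly made DNA strands, keeps it through cell division. ZFP57 and related zinc finger proteins bind the methylated copy and protect it. DAXX is a histone H3.3 chaperone and transcriptional co-repressor, and H3(Lys4) methylation marks active promoters and enhancers. A peak list does not tell the parental copies apart, so none of the values below is allele-specific.

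The K/D DAXX list held 42894 peaks from 18210051 tags and the WT DAXX list 59778 peaks from 15208845 tags. The share of tags inside peaks was 6.83% in K/D and 15.77% in WT. The DNMT1 lists were short, with 600 peaks in K/D and 2237 in WT, and only 0.07% and 0.26% of tags inside them. The H3(Lys4) lists held 72215 regions in K/D and 72100 in WT. H3(Lys4) regions lay within 1 kb of a TSS of 4 of 4 epithelial genes in K/D and in WT, of 0 of 2 blood genes in both lines and of 1 of 2 fibroblast genes (COL1A1) in both lines. Of the luminal prostate genes KLK2, KLK3 and TMPRSS2, TMPRSS2 had a region over a start in WT and none within 46598 bp in K/D, and KLK2 and KLK3 had none within 1 kb in either line. With 1 library per group no test between K/D and WT was possible, there are no replicates behind any value, and a peak described as absent is one that was not called. The part that the lower enrichment of the K/D library plays in the K/D and WT differences below was not tested.

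DAXX peaks lay about as close to the imprinted genes as to protein-coding genes at large. A DAXX peak centre lay within 10 kb of a TSS of 14 of the 31 genes in K/D cells (45.2%, beside 41.8% of all protein-coding genes). In WT cells the count was 16 of 31 (51.6%, beside 51.2%). Within 50 kb it was 23 genes in K/D (74.2%, beside 75.4%) and 24 in WT (77.4%, beside 81%). The median distance to the nearest DAXX peak was 18902 bp in K/D (95% interval of the median 3743 to 44241 bp) and 8358 bp in WT (1410 to 35980 bp). The median over all protein-coding genes was 15566 bp in K/D and 9278 bp in WT, inside the interval of the imprinted genes in each line. These values depend on which starts are counted. With only the 5′ end of each gene, 9 imprinted genes in K/D and 11 in WT had a DAXX peak within 10 kb. These were 29% and 35.5%, lower than the 38.5% and 48.1% of all genes. The difference rests on few genes and was not tested. With the lists of both lines cut to the same number of peaks, the count was 14 genes in K/D (45.2%) and 11 in WT (35.5%). The order of the lines then turned, as it did for all protein-coding genes (41.8% in K/D and 39.7% in WT).

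**Figure D1:**
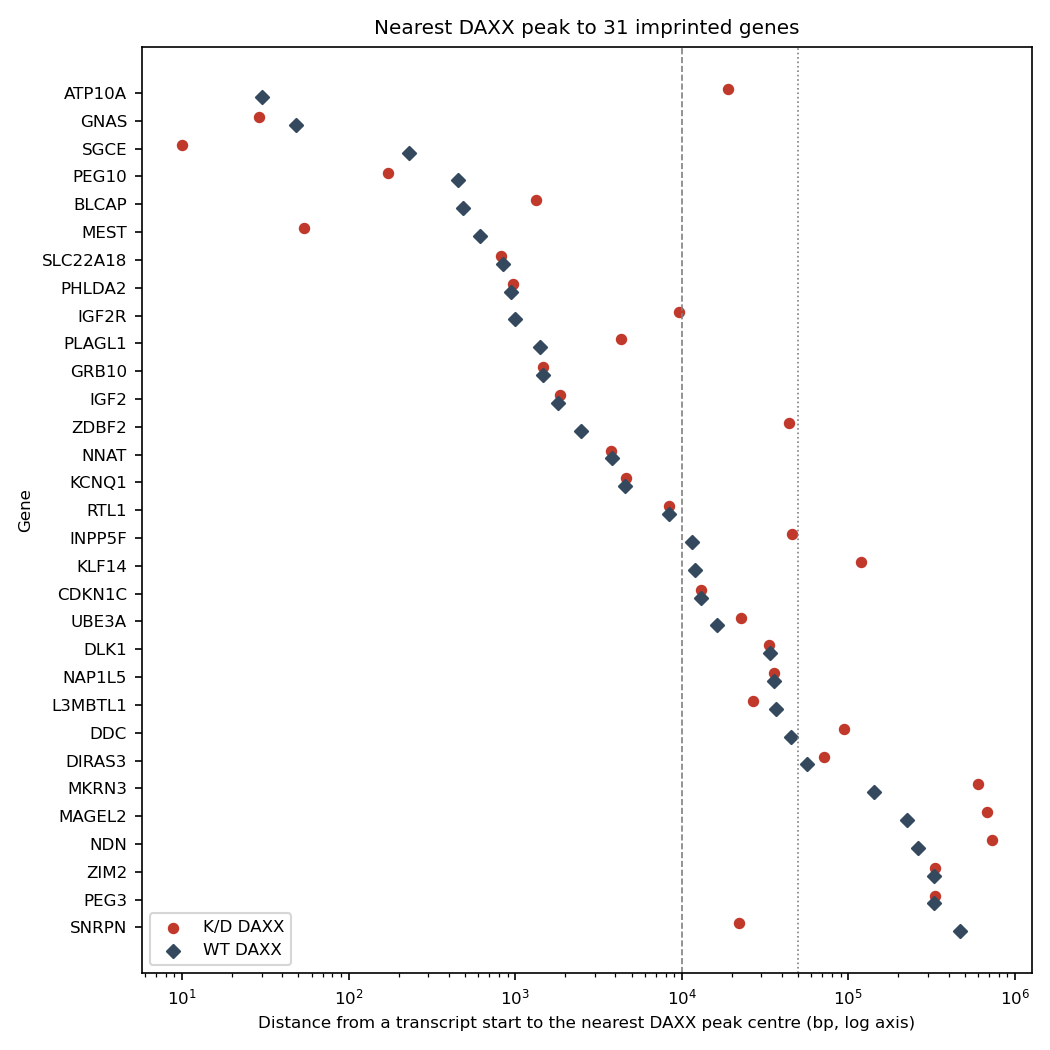
Distance in bp (log axis) from the closest transcript start of each of the 31 imprinted genes to the nearest DAXX peak centre, in K/D cells (red circles) and WT cells (dark diamonds). The dashed line marks 10 kb, the dotted line 50 kb, and the K/D peak of SGCE at 0 bp is drawn at the left edge. For 14 genes the K/D point and for 16 genes the WT point lies left of the dashed line.

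The 14 genes with a K/D DAXX peak within 10 kb were BLCAP, GNAS, GRB10, IGF2, IGF2R, KCNQ1, MEST, NNAT, PEG10, PHLDA2, PLAGL1, RTL1, SGCE and SLC22A18. All 14 also had a WT DAXX peak within 10 kb. ATP10A and ZDBF2 were the 2 genes with a WT and no K/D DAXX peak in that window (6.45%, beside 15.8% of all protein-coding genes), and no imprinted gene had a K/D peak alone (0, beside 6.36%). For 6 genes no DAXX peak lay within 50 kb in either line (19.4%, beside 15%), namely DIRAS3, MAGEL2, MKRN3, NDN, PEG3 and ZIM2. The nearest DAXX peak of these 6 genes lay between 71205 and 724613 bp away in K/D and between 56258 and 325282 bp away in WT. The shares lie near those of all genes or rest on 0 to 6 genes.

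DNMT1, the maintenance methyltransferase, was called near few of the 31 genes. None had a K/D DNMT1 peak within 50 kb (0, beside 2.95% of all protein-coding genes), and 3 had a WT DNMT1 peak (9.68%, beside 8.21%). Both counts are near the share of all genes, and the difference between the lines could not be tested. These were DLK1, GRB10 and L3MBTL1, with 6 peaks among them. No K/D DNMT1 peak overlapped any of the 6 WT peaks, and 0 of 6 allows a shared proportion of up to 45.9% (exact binomial, counting error only). Of all WT DNMT1 peaks 8.59% were also called in K/D, so 0 of 6 is no result about these peaks. With both DNMT1 lists cut to the same number of peaks, 3 WT peaks counted (places 131, 524 and 525) and 0 K/D peaks. At the imprinted genes, 3 of these 6 DNMT1 peaks lay on a DAXX peak of WT cells (beside 52.6% of all WT DNMT1 peaks) and 4 overlapped a WT H3(Lys4) region (beside 37.7%). At each of the 3 sites where WT DNMT1 and WT DAXX peaks overlapped, the DAXX peak was called again in K/D cells.

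The DNMT1 sites are shown as the reference sequence of 3 WT peaks outside exons, on the plus strand of hg19, 5′ to 3′. Capitals mark an AP-1 motif (TGACTCA or TGAGTCA, either strand) or an ETS motif (CCGGAAG, either strand). The ZFP57 hexamer TGCCGC and the CTCF core GGNGGCAG were also searched on both strands and have no match in these 3 windows.
DLK1 WT DNMT1 peak, chr14:101213398-101213526: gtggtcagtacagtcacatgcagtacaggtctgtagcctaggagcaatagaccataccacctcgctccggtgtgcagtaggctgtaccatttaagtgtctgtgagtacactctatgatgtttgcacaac
GRB10 WT DNMT1 peak, chr7:50732494-50732622: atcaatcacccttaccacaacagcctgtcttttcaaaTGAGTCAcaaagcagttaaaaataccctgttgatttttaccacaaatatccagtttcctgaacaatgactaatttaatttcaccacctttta
L3MBTL1 WT DNMT1 peak, chr20:42087822-42087950: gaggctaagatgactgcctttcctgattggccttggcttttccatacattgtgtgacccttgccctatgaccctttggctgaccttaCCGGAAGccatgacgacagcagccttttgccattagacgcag

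The DLK1 peak stood at place 131 of the WT DNMT1 list, and earlier places were taken as stronger. It lay 20095 bp downstream of a TSS of DLK1, a membrane protein related to Notch ligands that restrains differentiation, and away from any DAXX peak. It overlapped only the edge of a WT H3(Lys4) region (chr14:101212910-101213410) that stood late in its list, at place 65683. The L3MBTL1 peak printed above lay in an intron of the neighbouring SRSF6, 48432 bp upstream of the nearest L3MBTL1 start, at place 956. It overlapped a WT DAXX peak (place 12498) that was also called in K/D cells (place 7621). A further WT DNMT1 peak, chr20:42142664-42142792, lay 353 bp upstream of an L3MBTL1 start, late in the list at place 2130. With 72.1% G+C and 10 CpG dinucleotides in 129 bp it was the richest of the 6, and it overlapped an H3(Lys4) region but no DAXX peak. L3MBTL1 encodes a chromatin reader that compacts nucleosomes.

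GRB10 had the most DAXX peaks within 50 kb of the 31 genes in both lines. It encodes an adaptor that restrains insulin and IGF receptor signalling and is expressed from the maternal or the paternal copy depending on the tissue. Within 50 kb of its 12 distinct starts lay 9 DAXX peaks in K/D and 18 in WT. Starts spread along a long gene widen the sequence counted. Per Mb, the IGF2R locus held more in K/D (28.6, against 25.3 at the GRB10 and DDC locus). In WT the BLCAP and NNAT locus held more (51.7 against 48.3). Of the 18 WT peaks 8 were also called in K/D and 10 were not, and 1 of the 9 K/D peaks was not called in WT. The earliest-listed DAXX peak inside the gene was called in both lines at chr7:50801428-50801598 in K/D (place 2152 of the list, 1463 bp upstream of an internal start) and chr7:50801456-50801628 in WT (place 721). A WT DNMT1 peak, chr7:50801455-50801583, lay on it, at place 525. The K/D DAXX sequence is given because it is the imprinted-gene peak within 10 kb of a start that comes earliest in the K/D list, and none of the 4 motifs searched matches in it.
GRB10 K/D DAXX peak, chr7:50801428-50801598: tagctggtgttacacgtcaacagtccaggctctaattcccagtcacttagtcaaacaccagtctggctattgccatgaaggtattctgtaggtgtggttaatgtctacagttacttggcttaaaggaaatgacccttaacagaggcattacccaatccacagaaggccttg

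The second GRB10 site with both proteins, whose DNMT1 sequence with an AP-1 match is printed above (place 524), lay 40440 bp downstream of a start. There DAXX was called at chr7:50732395-50732565 in K/D (place 8491) and chr7:50732436-50732608 in WT (place 8366). The third WT DNMT1 peak, chr7:50807932-50808060 (place 1056), overlapped neither a DAXX peak nor an H3(Lys4) region. Upstream of the gene, 33453 bp from the 5′ end, an early DAXX peak stood at place 1115 in K/D and at place 643 in WT, with an AP-1 match in both. H3(Lys4) regions within 10 kb of a GRB10 start numbered 6 in K/D and 9 in WT, of which 2 of the 9 were also called in K/D. A WT region of 1825 bp just inside the 5′ end (chr7:50858156-50859980, 1179 bp away) had no K/D counterpart. A K/D region of 501 bp just upstream of the 5′ end (chr7:50861373-50861873, 214 bp away) had no WT counterpart. DDC, the aromatic amino acid decarboxylase next to GRB10, had no DAXX peak within 50 kb in K/D (nearest 93828 bp) and 1 in WT (45407 bp upstream).

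**Figure D2:**
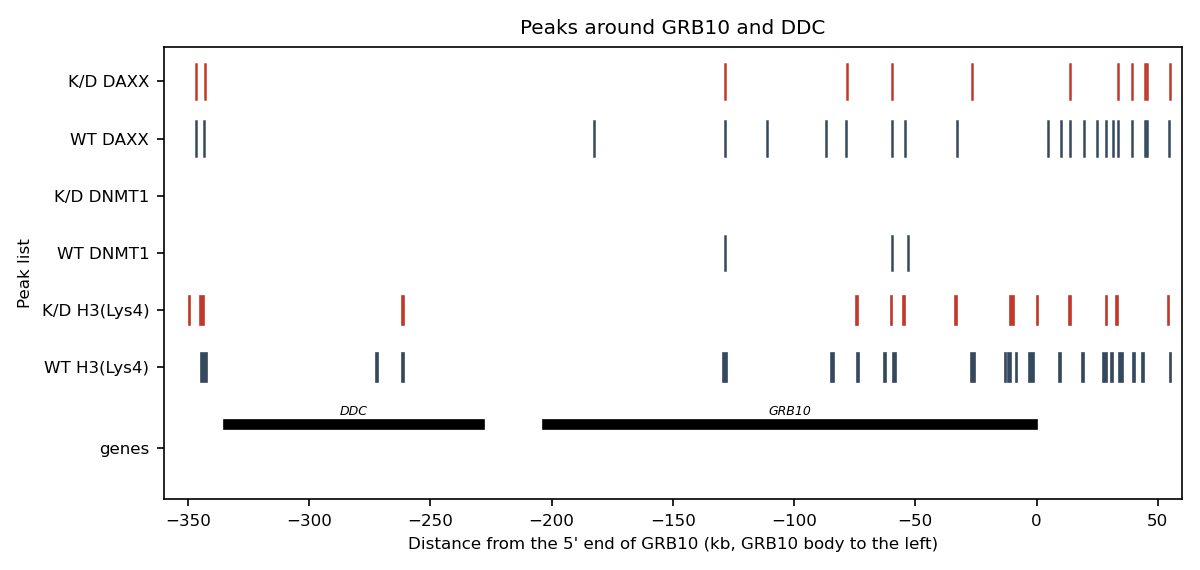
DAXX and DNMT1 peak centres (ticks) and H3(Lys4) regions (bars) in K/D (red) and WT (dark) cells by distance in kb from the 5′ end of GRB10, with the bodies of GRB10 and DDC in black. The WT row of DAXX holds ticks with no K/D partner on both sides of the 5′ end, and the 3 DNMT1 ticks are all in the WT row.

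The IGF2 to CDKN1C locus on chromosome 11 kept most of its DAXX peaks between the lines. It held 13 DAXX peaks in K/D and 16 in WT, and 12 of the 16 WT peaks overlapped a K/D peak (75%, exact 95% interval 47.6 to 92.7%, beside 48.4% of all WT DAXX peaks). In the reverse direction 12 of the 13 K/D peaks overlapped a WT peak (92.3%, interval 64 to 99.8%, beside 67.4%). Both intervals hold the share of the whole list. The locus was not alone, as the DLK1 and RTL1, IGF2R and GNAS loci also kept most of their WT DAXX peaks. The other loci with DAXX peaks kept at most 50%. At 14.4 peaks per Mb in K/D and 17.8 in WT the density of the locus was near that of the genome (13.9 and 19.3). DAXX was called at nearly the same positions in both lines beside SLC22A18, PHLDA2, KCNQ1 and IGF2.

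SLC22A18, which encodes an organic cation transporter, had a DAXX peak 819 bp upstream of its 5′ end in K/D (place 4845) and 850 bp upstream in WT (place 17840). PHLDA2, a small protein that limits placental growth, had one 973 bp upstream in K/D (place 15296) and 943 bp upstream in WT (place 19771). For KCNQ1, a potassium channel subunit whose long introns hold an imprinting control region, the nearest peaks lay 4626 bp (K/D, place 26091) and 4587 bp (WT, place 22736) upstream of the most downstream of its 4 starts. From the 5′ end of KCNQ1 the nearest DAXX peak lay 89290 bp away in both lines. For IGF2, the fetal growth factor, the nearest peaks lay in an intron, 1870 bp (K/D, place 30020) and 1803 bp (WT, place 45740) upstream of an internal start, and 15283 and 15350 bp from its 5′ end. CDKN1C, which encodes a cyclin-dependent kinase inhibitor, had its nearest peak 13127 bp upstream in K/D and 13096 bp upstream in WT, the same peaks that lie beside SLC22A18.

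The WT DAXX peaks beside SLC22A18 and PHLDA2 are shown by the rule for printed sequences, which goes by list order. Each has an AP-1 match (capitals) and was called in both lines. The match lies at base 84 (SLC22A18) and base 76 (PHLDA2) of the printed strand, counted from 1.
SLC22A18 WT DAXX peak, chr11:2920015-2920187: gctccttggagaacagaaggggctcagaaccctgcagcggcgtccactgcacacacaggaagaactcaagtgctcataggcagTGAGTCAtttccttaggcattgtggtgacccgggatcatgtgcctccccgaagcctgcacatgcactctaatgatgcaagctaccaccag
PHLDA2 WT DAXX peak, chr11:2951507-2951679: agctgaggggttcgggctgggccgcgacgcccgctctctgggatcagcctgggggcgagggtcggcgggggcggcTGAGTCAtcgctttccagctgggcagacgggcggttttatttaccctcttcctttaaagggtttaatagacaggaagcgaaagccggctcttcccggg

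The PHLDA2 window holds 15 CpG dinucleotides and 63.6% G+C, more than the SLC22A18 window (4 CpG, 55.5%). A further early DAXX peak lay deeper in KCNQ1, at chr11:2763147-2763317 in K/D (place 6381) and chr11:2763172-2763344 in WT (place 3114), with matches to AP-1, the ZFP57 hexamer and the CTCF core in both. H3(Lys4) at PHLDA2 differed in width. The WT region over its TSS spanned 4317 bp (chr11:2947760-2952076, place 928), while in K/D regions of 911 and 704 bp were called on either side of the TSS, 401 and 1374 bp away. CDKN1C had an H3(Lys4) region over a start in both lines, 1569 bp wide in K/D and 1986 bp in WT. At KCNQ1 a WT region lay 906 bp from the most downstream start, and the nearest K/D region lay 4153 bp from a start. Over the locus H3(Lys4) regions covered 23.6 kb in K/D and 48.6 kb in WT, or 2.63% and 5.4% of its length, beside 2.08% and 2.52% of the genome.

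On chromosome 20, NNAT lies inside an intron of BLCAP, so both genes share their peaks. NNAT encodes neuronatin, a small membrane protein of neuroendocrine cells, and BLCAP a small protein linked to growth control. Within 50 kb lay 3 DAXX peaks in K/D and 7 in WT, and all 3 K/D peaks overlapped WT peaks. The nearest to BLCAP in K/D lay 1327 bp downstream of a start (place 13981). Its WT partner stood at place 23810, 1304 bp downstream. A WT peak 488 bp upstream of a BLCAP start (place 22149, 3788 bp downstream of an NNAT start) had no K/D partner. An early-listed peak 14478 bp upstream of BLCAP, chr20:36170726-36170896, stood at place 339 in K/D and at place 618 in WT. H3(Lys4) was called 439 bp from a BLCAP start in K/D and over a start in WT, where the region spanned 2460 bp. NNAT itself had no H3(Lys4) region within 1 kb in either line (nearest 2937 bp in K/D and 1103 bp in WT). The K/D peak in BLCAP, shared with WT and without a match to any of the 4 motifs, reads as follows.
BLCAP K/D DAXX peak, chr20:36154713-36154883: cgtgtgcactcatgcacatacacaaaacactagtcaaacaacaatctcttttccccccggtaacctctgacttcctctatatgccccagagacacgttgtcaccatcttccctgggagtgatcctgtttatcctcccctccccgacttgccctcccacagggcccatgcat

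GNAS, the gene of the stimulatory G protein alpha subunit with several promoters of different imprinting, had 43 distinct starts. Its nearest DAXX peak lay 29 bp from the most downstream start in K/D (place 32732) and 48 bp from it in WT (place 51175), and the peaks overlapped. From the 5′ end of GNAS the nearest DAXX peak lay 36047 bp away in K/D and 36022 bp away in WT. H3(Lys4) regions lay over the 5′ end and over internal starts in both lines. Of 5 WT regions within 10 kb of a start all 5 were also called in K/D.

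At PEG10 and SGCE on chromosome 7, which start close together in opposite directions, DAXX was called at the shared start region in both lines. The called windows did not overlap between the lines. PEG10 derives from a retrotransposon and is needed for the placenta in mice, and SGCE encodes epsilon-sarcoglycan. The K/D peak, chr7:94285379-94285549 (place 33929), was centred on a start of SGCE and lay 173 bp upstream of a PEG10 start. In WT 2 peaks lay there, 231 and 774 bp downstream of SGCE starts (places 41181 and 36001), and neither overlapped the K/D peak. The median DAXX peak width was 171 bp in K/D and 173 bp in WT, so windows called close together can miss each other. All 3 peaks are in the later part of their lists. A K/D H3(Lys4) region of 4252 bp (chr7:94282449-94286700, place 991) covered this start region, where the WT list had regions of 2432, 501 and 878 bp. Upstream of SGCE an early shared peak with an AP-1 match lay 40937 bp away in K/D (chr7:94326736-94326906, place 658) and 40943 bp away in WT (chr7:94326741-94326913, place 337).

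At MEST, a paternally expressed gene for a hydrolase-like protein, the pattern was alike. K/D cells had a peak centred 54 bp before a start (chr7:130126038-130126208, place 33963) and WT cells one 612 bp after a start (chr7:130126709-130126881, place 50030), without overlap. Both hold the ZFP57 hexamer TGCCGC, which is in 2.33% of all K/D and 2.31% of all WT DAXX peaks, and both are rich in G+C (66.7% in K/D and 67.1% in WT). A K/D H3(Lys4) region of 1524 bp lay over the 5′ end of MEST (chr7:130125653-130127176, place 9127) and had no WT counterpart. The nearest WT region to the 5′ end was 4879 bp away, over an internal start. KLF14, a transcription factor gene expressed from the maternal copy, was the 1 gene with a K/D and no WT H3(Lys4) region within 1 kb (630 bp wide, 435 bp from its TSS). The nearest WT region lay 64280 bp away. Its nearest DAXX peak lay 119574 bp away in K/D and 12043 bp away in WT.

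On chromosome 6, PLAGL1 encodes a zinc finger transcription factor that restrains proliferation. It had a DAXX peak in both lines 4312 bp (K/D, place 27529) and 4268 bp (WT, place 20282) upstream of an internal start, and a WT peak 1410 bp downstream of a start (place 57776) without a K/D partner. From its 5′ end the nearest DAXX peak lay 51857 bp away in K/D and 51901 bp in WT. An H3(Lys4) region beside the internal start was called in both lines (2526 bp wide in K/D and 1582 bp in WT). A region over the 5′ end (1879 bp wide, chr6:144384518-144386396) was called in WT alone, with the nearest K/D region 18489 bp away.

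IGF2R, the receptor that clears IGF2 from the cell surface, had 5 DAXX peaks within 50 kb in each line, 4 of them shared. The peak nearest to its 5′ end differed. In K/D it lay 9645 bp downstream (place 36403), and in WT 997 bp downstream, in an intron (place 31768). The WT window opens with a CTCF core match (capitals, GGNGGCAG), and no K/D peak overlapped it.
IGF2R WT DAXX peak, chr6:160391025-160391197: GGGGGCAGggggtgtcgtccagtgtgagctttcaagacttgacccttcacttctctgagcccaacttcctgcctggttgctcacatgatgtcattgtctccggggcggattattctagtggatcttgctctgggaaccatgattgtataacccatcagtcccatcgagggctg

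The Prader-Willi and Angelman region on chromosome 15 was sparse. Over the 2400 kb of this locus lay 8 DAXX peaks in K/D and 13 in WT (3.33 and 5.42 per Mb), and 18 H3(Lys4) regions in K/D and 12 in WT (7.5 and 5 per Mb). MKRN3, a ubiquitin ligase gene linked to the timing of puberty, and MAGEL2 and NDN, a pair of MAGE-family genes, lay in a stretch of 1320 kb without a peak in any of the 6 lists (chr15:23668607-24991315). The nearest DAXX peak lay 602982 bp (K/D) and 142300 bp (WT) away for MKRN3, 685175 and 224493 bp for MAGEL2, and 724613 and 263931 bp for NDN. SNRPN, which encodes a splicing protein and starts at the imprinting centre, had a K/D DAXX peak 22167 bp downstream of a start (chr15:25222234-25222404, place 39612, near the end of the list) and no WT peak within 467213 bp. No H3(Lys4) region lay within 417899 bp (K/D) or 417638 bp (WT) of a SNRPN start.

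Peaks returned at UBE3A and ATP10A. UBE3A, a ubiquitin ligase gene expressed from the maternal copy in neurons, had 1 DAXX peak within 50 kb in each line, 22620 bp (K/D) and 16306 bp (WT) from a start, which did not overlap. H3(Lys4) regions lay 171 bp (K/D) and 155 bp (WT) from its starts. ATP10A, a phospholipid-transporting ATPase gene, had 5 DAXX peaks within 50 kb in K/D and 12 in WT. Of the 12 WT peaks 4 were also called in K/D. A WT peak 30 bp from an ATP10A start (chr15:26110203-26110375, place 53655) and WT peaks 2843 and 8924 bp downstream of starts had no K/D partner. The nearest K/D peak lay 18902 bp upstream (place 11890), and its WT partner stood at place 11133. An H3(Lys4) region over an ATP10A start was called in both lines, 1824 bp wide in K/D and 1841 bp in WT.

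**Figure D3:**
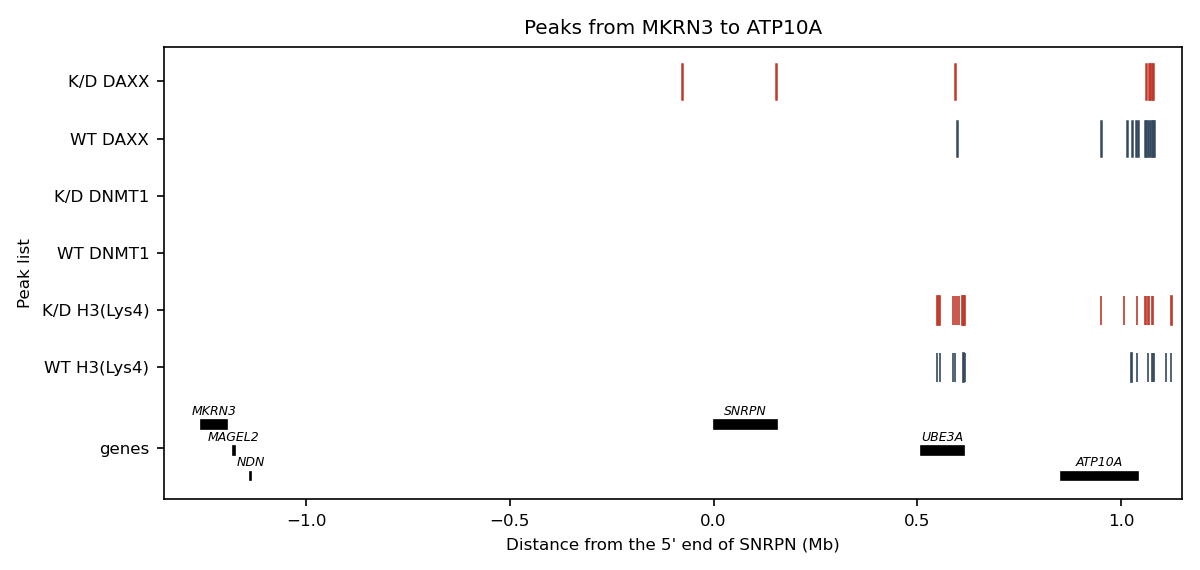
DAXX and DNMT1 peak centres (ticks) and H3(Lys4) regions (bars) in K/D (red) and WT (dark) cells by distance in Mb from the 5′ end of SNRPN, with gene bodies in black. The stretch around MKRN3, MAGEL2 and NDN is empty in all 6 rows, and no DNMT1 tick appears in either line.

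The remaining loci with DAXX peaks held 1 to 6 of them in each line. RTL1, a retrotransposon-derived gene expressed from the paternal copy, had a shared DAXX peak 8427 bp (K/D, place 26342) and 8358 bp (WT, place 46077) upstream of its start, and all 3 WT DAXX peaks within 50 kb were called in K/D. An H3(Lys4) region of 501 bp lay 426 bp from the RTL1 start in WT, and the nearest in K/D lay 7749 bp away. DLK1 had its nearest DAXX peak 33576 bp (K/D) and 33946 bp (WT) upstream. L3MBTL1 had 2 DAXX peaks within 50 kb in each line, with the nearest at 26926 bp in K/D and 36847 bp in WT. ZDBF2, a zinc finger gene, had a WT DAXX peak 2468 bp upstream of an internal start (chr2:207154233-207154405, place 51775), while the nearest K/D peak lay 44241 bp away. INPP5F, a phosphoinositide phosphatase gene, had 2 DAXX peaks within 50 kb in K/D and 5 in WT, with 1 shared, and NAP1L5, related to nucleosome assembly proteins, had 1 and 4, with 1 shared.

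DIRAS3, a Ras-related gene that restrains growth, lay in a stretch of 117 kb without a peak of any list. PEG3 and ZIM2, zinc finger genes that share a start region on chromosome 19, had no DAXX peak within 331786 bp in K/D or 325281 bp in WT. A WT H3(Lys4) region of 501 bp lay over a PEG3 start (chr19:57349182-57349682), at place 66055 and so near the end of its list. The nearest K/D region lay 241277 bp away.

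Peaks near the imprinted genes were kept between the lines about as often as peaks elsewhere. Counting each peak once, 56 DAXX peaks in K/D and 91 in WT lay within 50 kb of a start. Of the 91 WT peaks 43 overlapped a K/D peak (47.3%, exact 95% interval 36.7 to 58%, beside 48.4% of all WT DAXX peaks). Of the 56 K/D peaks 43 overlapped a WT peak (76.8%, interval 63.6 to 87%, beside 67.4%). The place in the list went with being kept. Among WT peaks listed in the first 50%, 31 of 46 were kept (67.4%, beside 69.3% of that portion of the list), and in the remainder 12 of 45 (26.7%, beside 27.4%). Within 10 kb of a start 11 of 30 WT peaks were kept (36.7%, interval 19.9 to 56.1%), and these 30 peaks stood at a median of 72.7% of the way down the list.

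**Figure D4:**
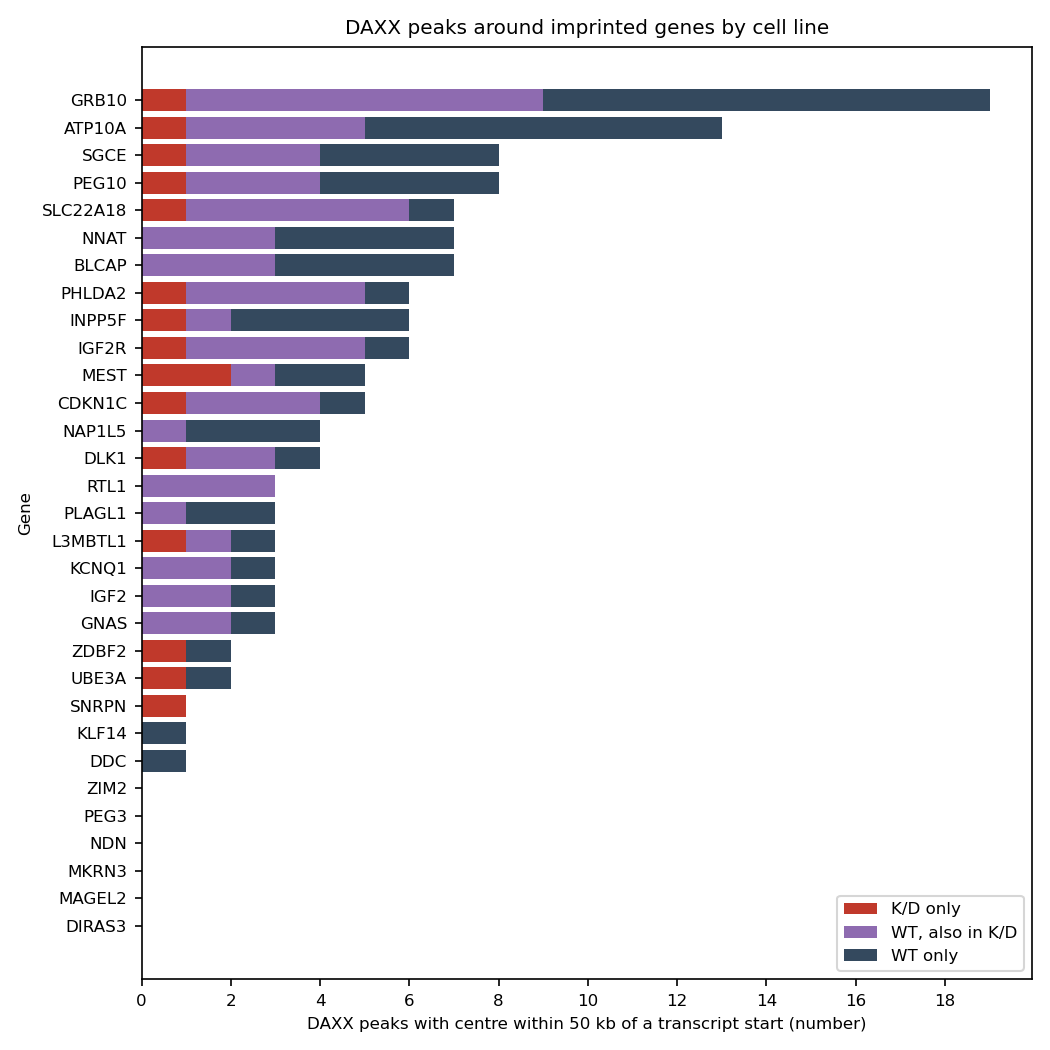
Number of DAXX peaks with their centre within 50 kb of a start of each imprinted gene, split into peaks called in K/D alone (red), WT peaks also called in K/D (purple) and WT peaks without a K/D partner (dark). GRB10 has 1, 8 and 10 such peaks and ATP10A 1, 4 and 8, while 6 genes have none. Genes that lie close together count the same peaks.

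The loci differed in how densely DAXX was called. The GRB10 and DDC locus held 11 peaks in K/D and 21 in WT (25.3 and 48.3 per Mb), the BLCAP and NNAT locus 3 and 7 (22.1 and 51.7), and the PEG10 and SGCE locus 6 and 10 (24.4 and 40.7). The genome held 13.9 per Mb in K/D and 19.3 in WT. All genome densities and coverage shares were taken over the full 3095677 kb of hg19. That length includes unsequenced gaps, so these genome values are somewhat low. NAP1L5 (9.81 in K/D and 39.2 in WT) and INPP5F (9.85 and 24.6) lay below the genome in K/D and above it in WT. IGF2R had 28.6 per Mb in both lines and the DLK1 and RTL1 locus 21.6 in both. L3MBTL1, GNAS, PLAGL1, the MEST and KLF14 locus, ZDBF2 and the chromosome 15 locus lay below the genome in both lines, and the PEG3 and DIRAS3 loci held no DAXX peak. Over all 16 loci DAXX peaks covered 0.179% of the sequence in K/D and 0.283% in WT, beside 0.237% and 0.334% of the genome. The chromosome 15 locus, the longest at 2400 kb, had 0.057% covered in K/D and 0.0937% in WT. It lowers the pooled values, which therefore do not describe the loci one by one.

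**Figure D5:**
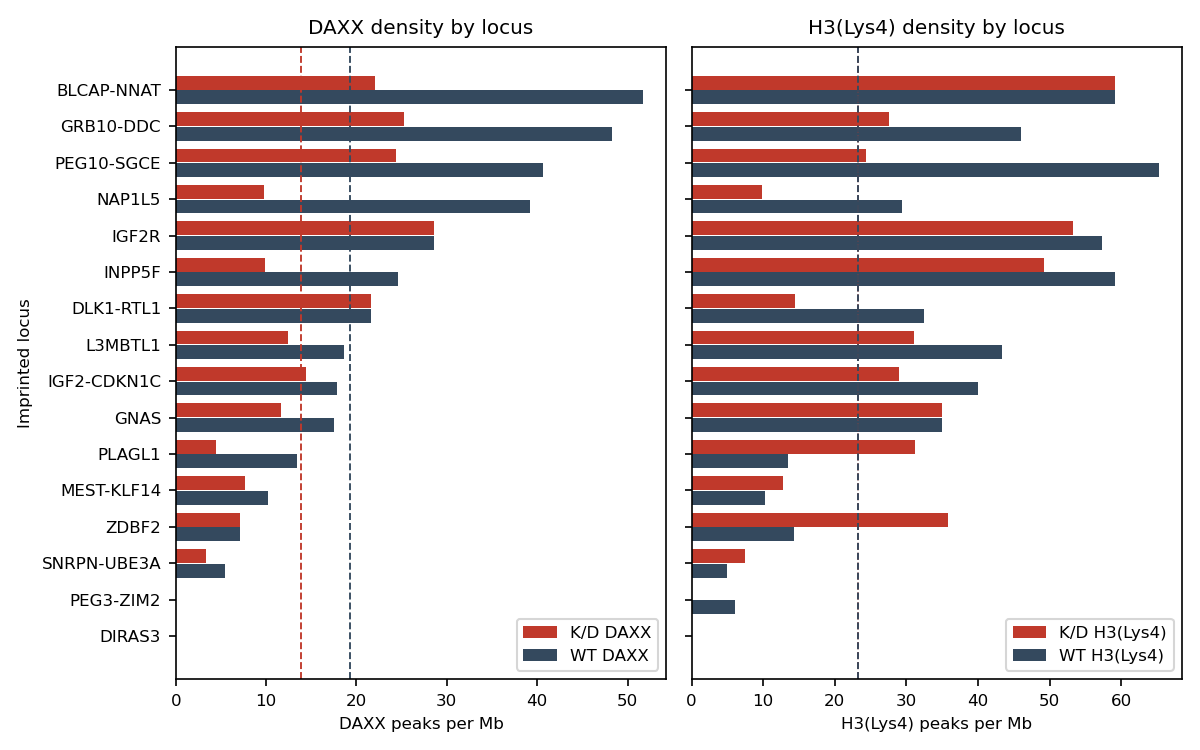
DAXX peaks (left) and H3(Lys4) regions (right) per Mb at each of the 16 imprinted loci in K/D (red) and WT (dark) cells, with dashed lines for the genome (13.9 and 19.3 per Mb for DAXX, and 23.3 per Mb in both lines for H3(Lys4), where the lines coincide). The BLCAP and NNAT locus has the longest WT DAXX bar, at 51.7 per Mb, and the PEG3 and DIRAS3 loci have no DAXX bar.

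H3(Lys4) regions lay within 1 kb of a start of 18 imprinted genes in K/D (58.1%, beside 55.1% of all protein-coding genes) and of 20 in WT (64.5%, beside 58.1%). With only the 5′ end of each gene the count was 13 in each line (41.9%), below the 49% (K/D) and 52.9% (WT) of all genes. Only KLF14 had a K/D region and no WT region (3.23%, beside 9.42%), and KCNQ1, PEG3 and RTL1 had a WT region and no K/D region (9.68%, beside 12.4%). The 10 genes with a region in neither line were DDC, DIRAS3, DLK1, MAGEL2, MKRN3, NAP1L5, NDN, NNAT, SNRPN and ZIM2. DAXX was called more often near genes with the mark, as it was over all protein-coding genes. Of the 20 genes with a WT H3(Lys4) region 15 had a WT DAXX peak within 10 kb (75%, beside 64.7% of marked protein-coding genes). Of the 11 genes without one, NNAT alone had a WT DAXX peak in that window (9.09%, beside 32.6% of unmarked genes). These shares rest on 20 and 11 genes, some of them neighbours at the same locus. A gene with many starts also has more chances of both calls. Nothing particular to imprinted genes is read from them. Within 50 kb of a start 112 H3(Lys4) regions lay in K/D and 128 in WT. A WT region overlapped 63 of the 112 K/D regions (56.2%, beside 48.2% of all K/D regions), and a K/D region overlapped 61 of the 128 WT regions (47.7%, beside 45.8% of all WT regions). Of the DAXX peaks near the imprinted genes 23 of 56 in K/D (41.1%, beside 28.7% of all K/D DAXX peaks) and 40 of 91 in WT (44%, beside 37.4%) overlapped an H3(Lys4) region of the same line.

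The AP-1 motif was the commonest of the 4 searched in these peaks. It was in 25 of 56 K/D DAXX peaks (44.6%, exact 95% interval 31.3 to 58.5%, beside 33.9% of all K/D DAXX peaks) and in 36 of 91 WT DAXX peaks (39.6%, interval 29.5 to 50.4%, beside 34.9%). The CTCF core was in 6 of 56 in K/D (10.7%, interval 4.03 to 21.9%, beside 5.19%) and in 8 of 91 in WT (8.79%, interval 3.87 to 16.6%, beside 5.37%). The ZFP57 hexamer was in 3.57% of K/D and 3.3% of WT peaks, beside 2.33% and 2.31% of the lists, and the ETS motif in 3.57% and 2.2%, beside 1.78% and 1.88%. Median G+C content was 48% in both lines, beside 44.4% in the K/D and 44.5% in the WT list. Of the whole WT DNMT1 list 20.3% of peaks hold an AP-1 match and 0.671% an ETS match. For each of the 4 motifs the interval of the DAXX share near imprinted genes holds the share of the whole list in both lines.

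Grouped by the copy they are expressed from, the 18 paternally expressed genes had a DAXX peak within 10 kb in 7 cases in K/D and 8 in WT (38.9% and 44.4%), and an H3(Lys4) region within 1 kb in 7 and 9 (38.9% and 50%). Of all protein-coding genes 41.8% (K/D) and 51.2% (WT) had such a DAXX peak and 55.1% and 58.1% such a region. Of the 5 maternally expressed genes 3 had a DAXX peak in K/D and 3 in WT (60% in each), and 4 had an H3(Lys4) region in each line (80%). Of the 8 genes whose imprinting depends on the tissue or the isoform 4 had a DAXX peak in K/D and 5 in WT (50% and 62.5%), and 7 had an H3(Lys4) region in each line (87.5%). With 5 to 18 genes a group, nothing is read from these differences. The paternally expressed group holds the 6 genes without a DAXX peak within 50 kb, which lie at 3 loci, so its genes are not independent of each other.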

How the data were processed

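ChIP-Seq of DAXX, DNMT1 and H3(Lys4) was made in K/D and WT PC3 cells, with 8 libraries, 1 per group, of which the 2 inputs have no peak list here. Per the labels and the methods, the authors used CASAVA 1.8.2 for base calls, Bowtie2 2.1.0 for mapping to hg19 and HOMER 4.6 for peaks. Per the file headers, each list was called against its input, with 4.0-fold enrichment and a Poisson p-value limit of 0.0001. The input step removed 48.8% (K/D) and 34.3% (WT) of putative DAXX peaks and 74.8% and 79.6% of putative DNMT1 peaks. Peak boundaries (start, end) were taken as deposited by the authors. The deposited score is 1 for all peaks, so places refer to the deposited order, taken as the order of strength without a value to check it.

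Distances run to the closest start among basic protein-coding transcripts of GENCODE release 44 on the same build, from peak centres (DAXX, DNMT1) or region edges (H3(Lys4), 0 where the start lies inside). Peaks sharing at least 1 bp between lines counted as shared, and shares near genes have exact Clopper-Pearson intervals at 95%, which cover counting error only. Python 3.11.15, numpy 2.4.6, scipy 1.17.1, pysam 0.24.0 and samtools 1.23.1 were used, and distance and overlap routines were tested on simulated data. Every listed gene was described. Printed sequences were, outside exons, the peaks nearest to a start within 10 kb that come first in list order, at most 1 per gene, and DNMT1 peaks within 50 kb. They were read from the GRCh37 reference. A site and a marker gene that met these rules are not reported here. The genes, lists, motifs and alternatives were chosen with earlier results of these data known. Alternatives changed the starts, the list length, the distance reference and the overlap rule.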

Additional observations from a re-analysis of the deposited data

How the results depend on the processing

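Of 48 alternative values, 40 stayed within the spread or within 1.5 times the main count. Comparisons built on them did turn. For equal list sizes DAXX lay within 10 kb of 14 genes in K/D and 11 in WT. The order also turned for all protein-coding genes (41.8% in K/D and 39.7% in WT). With 1 start per gene the shares fell below those of all genes for DAXX and H3(Lys4) in both lines, a difference of few genes that was not tested. With 1 transcript start per gene, K/D DAXX lay within 10 kb of 9 genes (main 14), WT H3(Lys4) within 1 kb of 13 (main 20), and WT DNMT1 peaks within 50 kb numbered 3 (main 6). With lists of equal size WT DNMT1 peaks also numbered 3. With the first 50% of each list, DAXX lay within 10 kb of 5 genes in K/D (main 14) and 8 in WT (main 16). These were 16.1% and 25.8%, beside 24.2% and 29.7% of all protein-coding genes. The K/D median distance was then 45082 bp (main 18902 bp), beside 42043 bp for all protein-coding genes. Of WT DAXX peaks within 10 kb, 36.7% were kept (main 47.3% within 50 kb). With fewer starts or peaks counted, fewer lie near a gene by construction. No paired analysis was possible because each group has 1 library. A library with few tags inside peaks limits what can be called, above all for DNMT1 in K/D cells (600 peaks).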

Other observations

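Non-coding transcripts of the imprinted clusters were read in the same way, and 12 of 14 names matched the annotation. KCNQ1OT1, the antisense transcript that starts at the control region inside KCNQ1, had a DAXX peak 829 bp from a start in K/D and 749 bp in WT, and the peaks overlapped. MEG8, a maternally expressed transcript beside RTL1, had 6 DAXX peaks within 10 kb of its 48 starts in K/D and 8 in WT, of which 4 were kept, with the nearest 409 bp away in K/D and 352 bp in WT. H19, the maternally expressed neighbour of IGF2, had a K/D DAXX peak 2582 bp from a start, while the nearest WT peak lay 72736 bp away. An H3(Lys4) region lay 523 bp from an H19 start in WT and 47019 bp away in K/D. SNHG14, the long transcript antisense to UBE3A, had DAXX peaks 1411 bp (K/D) and 4284 bp (WT) from its 111 starts. HYMAI, beside PLAGL1, had peaks 4480 bp (K/D) and 1440 bp (WT) away. AIRN, antisense to IGF2R, had none within 23255 bp in K/D and 23327 bp in WT. MEG9 (3394 bp in K/D and 449 bp in WT) and MESTIT1 (4695 and 4023 bp) had a DAXX peak within 10 kb in both lines. None lay within 10 kb in either line for MEG3 (17796 and 17787 bp), GNAS-AS1 (24862 and 24837 bp), PWRN1 (158656 and 678453 bp) and MIMT1 (331266 and 324761 bp). A transcript with many annotated starts has more chances to lie near a peak.

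A second list of 38 protein-coding genes reported as imprinted, none of them described above, had a DAXX peak within 10 kb at 13 genes in K/D and 13 in WT (34.2% in each, beside 41.8% and 51.2% of all protein-coding genes), and an H3(Lys4) region within 1 kb at 20 genes in each line (52.6%, beside 55.1% in K/D and 58.1% in WT). The median distance to a DAXX peak was 30163 bp in K/D and 34247 bp in WT, farther than the 15566 and 9278 bp of all protein-coding genes. OSBPL5, an oxysterol-binding protein gene at the end of the chromosome 11 cluster, had DAXX peaks 58 bp (K/D) and 75 bp (WT) from a start, and TFPI2, a protease inhibitor gene next to the PEG10 cluster, 132 and 146 bp. LIN28B, a regulator of let-7 processing, had a K/D peak 2405 bp and a WT peak 39242 bp from a start. SMOC1, a matrix protein gene, had a K/D peak at 853 bp and a WT peak at 132897 bp. The reverse was seen at NAP1L4 (519 bp in WT and 45107 bp in K/D) and HM13 (3097 bp in WT and 27977 bp in K/D). DNMT1 was called within 50 kb of TP73 in K/D (49397 bp) and of ERAP2 in WT (1013 bp).

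Of 12 genes whose proteins write or protect imprints, 6 had a DAXX peak within 10 kb in K/D and 6 in WT (50% in each, near the 41.8% and 51.2% of all protein-coding genes). SETDB1, a histone H3 lysine 9 methyltransferase gene, had peaks 42 bp (K/D) and 3621 bp (WT) from a start, and CTCF, the gene of the insulator protein, 272 and 1383 bp. UHRF1, which brings DNMT1 to newly copied DNA, had peaks at 1715 bp (K/D) and 1732 bp (WT). ZFP57 had none within 83899 bp in K/D and 82662 bp in WT. These genes were named after their values were seen.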
